A study of Brassica napus with 355 samples.

Results

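The 100 genes described here are genes of the BnA subgenome of Brassica napus whose transcript level in the leaf was lower under water limitation at every time of day sampled. They were chosen from 41325 genes with a mean of 2 or more CPM (counts scaled to a library of fixed size) over all libraries, of which 19193 were BnA genes, out of 106126 identifiers in the tables (45540 of them BnA). For each gene the water-limited (WL) minus well-watered (WW) difference in log2(CPM + 1) was taken within each accession at each time point and averaged over the 16 accessions, and the 100 BnA genes whose highest value among the 4 time points was lowest became the members. The WL minus WW differences below are therefore a description of what the choice used, and no test was made on them. B. napus, the species of rapeseed oil and rutabaga, is an allopolyploid that carries a subgenome from B. rapa (BnA) and one from B. oleracea (BnC), so reads were assigned to identifiers of either parent. None of the 100 identifiers was found in the table of gene symbols used here, and genes are named by identifier.

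The libraries were RNA from the apex of the youngest leaf of individual plants of 16 accessions, named here without the catalogue codes of the labels as Aburamasari (Ab), Alaska (Al), Aviso (Av), Bristol (Br), Campari (Ca), DH12075 (DH12), DH2075 (DH20), Darmor (Da), Gruener Schnittrohl (Gr), Musette (Mu), NK_Nemax (Ne), Quantum (Qu), Sensaton_NZ (Se), Stellar DH (St), Yudal (Yu) and Zephir (Ze). Plants were kept at 100% (WW) or 20% (WL) of the full water capacity of the pot, with a later rise in water that both treatments received, and the harvest times, as zeitgeber time (ZT) in hours from dawn, were ZT1, ZT7, ZT13 and ZT19. The 354 libraries analysed, 182 WW and 172 WL, formed 128 groups of 1 accession, treatment and time point, of which 24 held 2 plants, 3 held 1 and the others 3. The labels and the methods differ on day length and temperature, which were the same for both treatments, and the leaf label was not checked against marker genes because the identifiers carry no names.

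A leaf that meets a long shortage of water slows its growth, closes its stomata under the control of abscisic acid and shifts its carbohydrate use. Many leaf transcripts also follow the day, under the circadian clock and the light, so that a difference seen at 1 hour need not be there at another. Genes of immunity, such as those of systemic acquired resistance, are among the plant genes whose level depends on the salicylic acid and abscisic acid pathways, and they often act in large sets that are raised together.

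Library totals lay between 3216762 and 35177558 counts. Their median was 18331962 in WW and 18332048 in WL libraries. The profile of 17 libraries matched another time point of their own accession better than the labelled one, and 2 libraries held under 5000000 counts. Values without these 19 libraries, a choice made after the data were seen, are given where they change a direction or move a value by much.

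The members were lower under WL by a median of 1.41 on the log2 scale over time points and accessions (WL minus WW of -1.41, range -2.46 to -1.008), whereas the median over all BnA genes tested was -0.04. In these bulk leaf samples, fewer cells of a type and less RNA per cell cannot be told apart. The median difference over members was -1.40 at ZT1, -1.22 at ZT7, -1.74 at ZT13 and -1.26 at ZT19. ZT13 was the time point of the largest difference for 78 members, and the smallest difference stood at ZT7 for 48 and at ZT19 for 35. Of the 19193 BnA genes tested, WL minus WW was lowest at ZT13 for 3714 and highest at ZT7 for 3154 and at ZT19 for 6351. The 35 members at ZT19 were thus near the share of all BnA genes. WL was below WW in all 16 accessions for 73 members, in 15 for 20, in 14 for 3 and in 13 for 4, where 5.54% of all BnA genes tested and 5.52% of all genes were below in all 16. Without the 19 libraries in doubt, the median difference of the members was -1.35, and WL was below WW in all 16 accessions for 76 members. St at ZT7 and Ca at ZT13 then had no value.

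At the limit of the choice the values were close. The 5 members just inside, BraA05g20980R, BraA09g14450R, BraA03g22570R, BraA03g45560R and BraA07g10860R, had highest differences of -0.92, -0.92, -0.92, -0.92 and -0.91. The 5 genes just outside, BraA09g14830R, BraA03g41040R, BraA06g10090R, BraA03g59580R and BraA02g17510R, had -0.91, -0.90, -0.90, -0.90 and -0.90. The choice thus cut through a continuous range, and 176 BnA genes had a mean difference at or below that of the member with the smallest mean difference.

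The gene at the head of the list was BraA03g42000R, whose difference was at least 1.83 below 0 at each time point (-2.72 at ZT1, -1.83 at ZT7, -2.88 at ZT13 and -2.39 at ZT19). Its level ran from 0 through a median of 40.5 to 2240.9 CPM in the 182 WW libraries and from 0 through 3.14 to 8100.3 CPM in the 172 WL libraries. The treatments thus overlapped over almost their whole ranges, and the highest value of all came from a water-limited plant, replicate 1 of Ab at ZT13. Without that library the mean difference of BraA03g42000R was -2.48 in place of -2.46. By accession, its median under WW went from 2.14 CPM in St and 2.59 in Yu to 738.3 in Ca, and under WL from 0.054 in Yu to 114.9 in Ab. In Ne the WL median (40.3 CPM) was above that of WW (23.6), while in Mu the medians were 185.0 under WW and 3.05 under WL.

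BraA07g23820R and BraA09g53190R came next and differed from most members in their daily course and in the accessions that carried the difference. BraA07g23820R ran from 0 through a median of 7.60 to 87.7 CPM under WW and from 0 through 1.04 to 12.8 CPM under WL, with WL below WW in each of the 64 combinations of accession and time point. BraA09g53190R ran from 0 through 19.2 to 215.1 CPM under WW and from 0 through 2.22 to 109.6 CPM under WL. In St, every WL library lay below every WW library for both. There BraA07g23820R held 4.25 to 17.7 CPM in the 11 WW libraries against 0 to 0.637 in the 8 WL libraries, and BraA09g53190R held 2.34 to 11.3 against 0 to 2.16.

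The other 7 of the 10 members with the lowest limit were BraA03g50720R, BraA07g21190R, BraA02g28330R, BraA06g26550R, BraA02g10140R, BraA10g03500R and BraA03g45440R. Their mean differences lay between -2.21 (BraA02g10140R) and -1.71 (BraA03g45440R), and all 7 were below 0 in all 16 accessions. BraA03g50720R had a median of 10.7 CPM under WW (0.310 to 220.1) and 1.32 under WL (0 to 173.0), and like BraA07g23820R it was lower under WL in each of the 64 combinations. BraA07g21190R had 28.9 CPM under WW (1.38 to 1195.4) and 6.37 under WL (0.058 to 5313.6), the highest WL value again in replicate 1 of Ab at ZT13. BraA02g28330R had 22.5 CPM under WW (highest 1155.6) and 5.30 under WL (highest 1312.1). BraA06g26550R had 10.5 and 1.63, BraA02g10140R 12.1 and 1.55, BraA10g03500R 11.9 and 2.36, and BraA03g45440R 23.9 and 5.04 CPM as WW and WL medians. In all 7 the medians stood apart by a factor between 4.24 and 8.16, yet the ranges of the treatments overlapped in each.

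**Figure D1:**
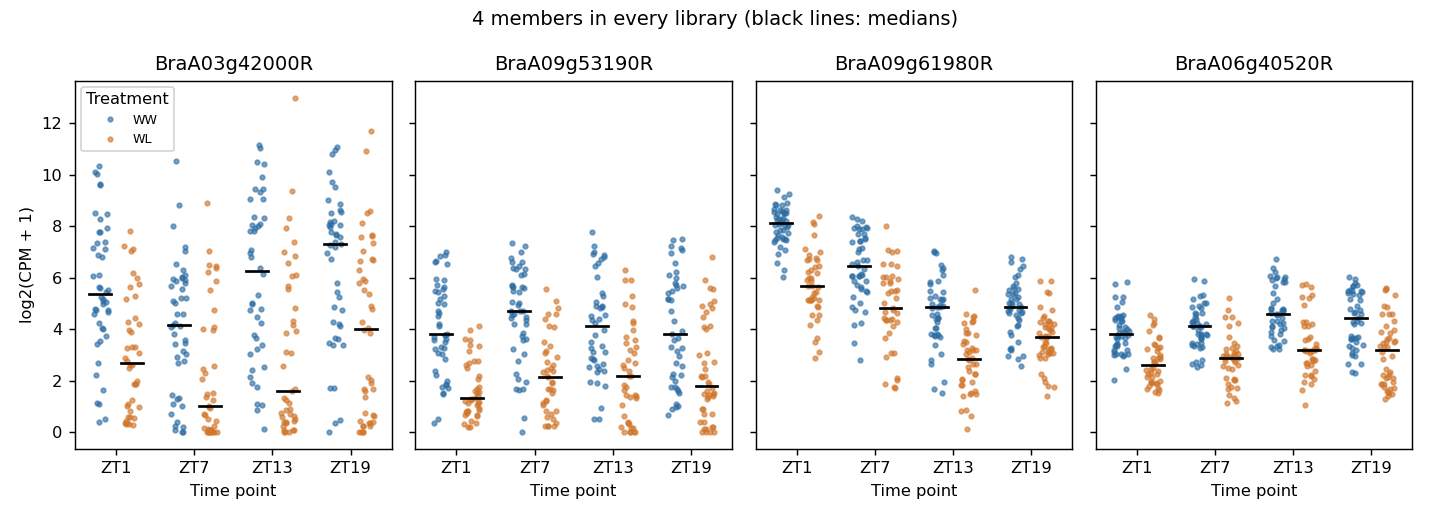
Level of 4 members in every library, as log2(CPM + 1), by time point and treatment (blue WW, orange WL, black lines medians). BraA03g42000R spread over the widest range, from 0 to 8100.3 CPM, BraA09g53190R and BraA06g40520R stayed within narrower ranges, and BraA09g61980R was highest at ZT1 under both treatments.

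Per length of transcript, most members lay below the middle of the BnA genes tested. The mean deposited log2 FPKM (fragments per kilobase of transcript, scaled by depth and normalized within each accession) had a median of 1.66 over the 99 members that the FPKM tables hold, between -1.08 and 4.86, against 2.35 over all BnA genes tested. Of these 99, 45 had a value in all libraries, and the rest were averaged over the libraries that held one. In CPM, not divided by length, the members had a median of 20.2, above the 10.6 of all BnA genes tested. The 5 most abundant members per length were BraA07g27820R (4.86), BraA04g08360R (4.83), BraA10g12580R (4.57), BraA09g61980R (4.43) and BraA02g43070R (4.41). BraA07g27820R ran from 4.37 through 89.2 to 816.3 CPM under WW and from 0.532 through 34.3 to 705.0 under WL. BraA04g08360R ran from 1.31 through 79.8 to 539.7 under WW and from 2.02 through 33.7 to 244.7 under WL, BraA10g12580R from 0.560 through 23.4 to 1176.7 and from 0 through 6.40 to 1074.2, and BraA02g43070R from 1.23 through 42.8 to 505.3 and from 0.465 through 18.2 to 220.3. WL was below WW in all 16 accessions for each of these 5, and the WW and WL ranges overlapped in each.

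The accessions differed in how far the members were lowered. The mean of the 100 members was lower under WL in all 16, by 2.69 (log2) in Ca, 2.56 in Mu, 2.11 in Br and 1.62 in Ab, and by least in Yu (0.87), St (0.91), Ne (0.93) and Av (0.99). Without the libraries in doubt the difference in Qu, where 3 libraries were left out, went from -1.44 to -0.74, the smallest of the 16, that in St from -0.91 to -1.28 and that in Ca from -2.69 to -2.30. St then had no value at ZT7 (0.11 with all libraries) and Ca none at ZT13 (-3.09 with all libraries). The shifts in St and Ca thus include the loss of a time point. In Ca the mean level of the members had a median of 5.71 (3.25 to 7.11, n = 12) under WW and 2.63 (1.16 to 6.09, n = 10) under WL, and in Mu 4.87 (2.68 to 6.64, n = 10) and 1.82 (0.94 to 5.15, n = 11). In Yu it was 2.88 (1.76 to 4.29, n = 12) and 1.72 (1.41 to 2.87, n = 11), and in St 3.28 (1.82 to 5.85, n = 11) and 1.88 (1.26 to 3.41, n = 8). The mean level under WW was highest in Ca (5.58) and Mu (4.74) and lower in Yu (2.85), Av (2.95) and St (3.03). Not all accessions followed this, as with Ze (WW mean 4.09, difference -1.003) and Gr (2.71, -1.18). Without the libraries in doubt the difference in Ze was -1.34, and that in Gr stayed the same. The log2(CPM + 1) scale understates the change of low genes. How far the order of the accessions rests on their level under WW was not tested. Single plants did not separate by treatment in any accession, since in all 16 the highest WL library lay above the lowest WW library.

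**Figure D2:**
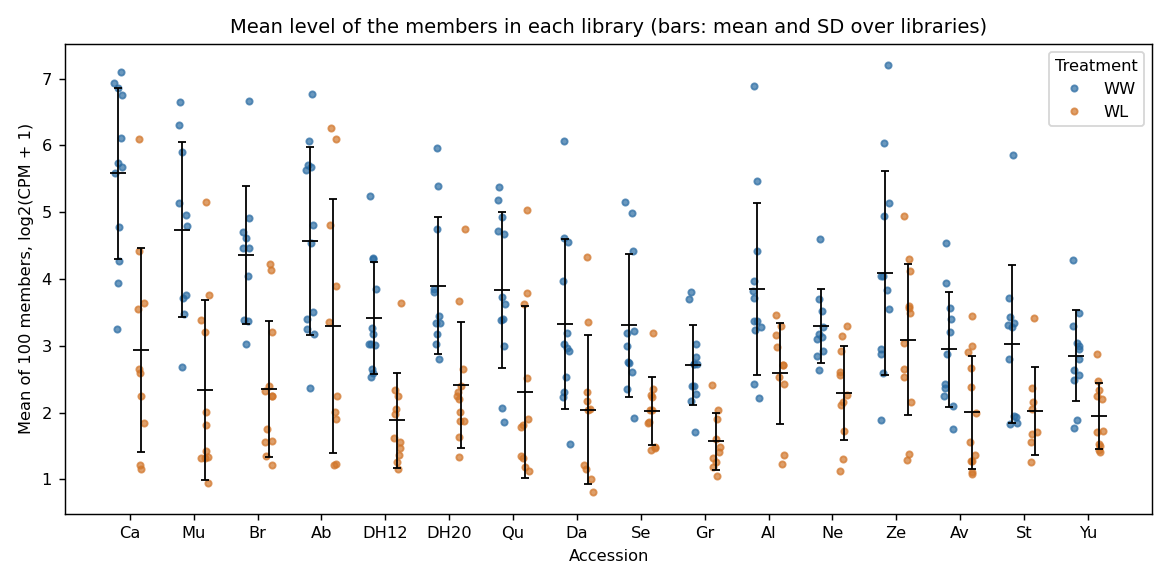
Mean log2(CPM + 1) of the 100 members in each of the 354 libraries, by accession and treatment (blue WW, orange WL), with the mean and SD over libraries of all time points as black bars. WL means are lower in all 16 accessions, the ranges over all time points together overlap in each, and single plants reach 7.20 under WW and 6.26 under WL.

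Set beside plants of the same accession and hour, a WL plant had the lower mean level in 424 of 489 pairs (86.7%). All WL plants were below all WW plants in 31 of the 64 combinations of accession and time point, and the mean was below 0 in 62 of them. The exceptions were St at ZT7 (0.11) and Yu at ZT1 (0.10). In St at ZT7 the WL value was that of 1 plant, whose library was among those in doubt, and in Yu at ZT1 the difference was -0.12 without WW replicate 3. Without the libraries in doubt, 2 combinations had no plant left under 1 treatment, and 60 of the other 62 were below 0, the exceptions being Qu at ZT19 (0.27, in place of -1.57) and Yu at ZT1. WL was then the lower in 386 of 440 pairs (87.7%). At ZT13 the difference was -3.84 in Mu and -3.44 in Br but -0.05 in Ab and -0.04 in Da. Single plants moved these values, since Br stood at -2.13 without WW replicate 2, a library in doubt, and Da at -0.78 without WL replicate 2 and 0.36 without WL replicate 1. In Ab at ZT13 the 3 WW plants stood at 2.37, 4.80 and 6.06 and the 3 WL plants at 2.01, 4.80 and 6.26. The WL plants at 6.26 and 2.01 and the WW plant at 2.37 were among the libraries that matched another time point best, and without all 3 the difference in Ab at ZT13 was -0.63. It was -1.008 without the plant at 6.26 alone and 1.12 without the plant at 2.01 alone.

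**Figure D3:**
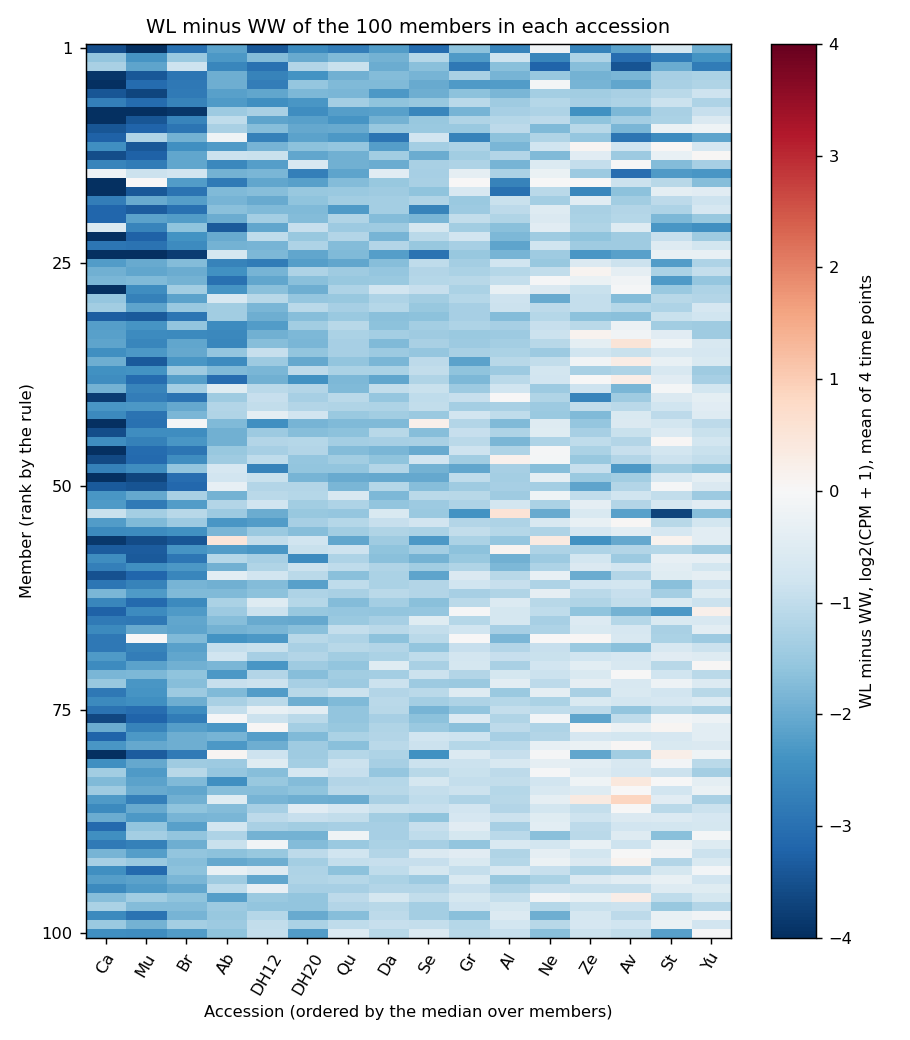
WL minus WW difference in log2(CPM + 1), averaged over the 4 time points, for each of the 100 members (rows, by rank) in each of the 16 accessions (columns, ordered by the median over members). Blue is lower under WL. The columns of Ca (median -2.54) and Mu (-2.52) are darkest and that of Yu (-0.74) palest, and 73 rows are blue throughout.

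Genes chosen anew without an accession were mostly lower under WL, as a mean over time points, in the accession left out. In each of 16 rounds, 100 BnA genes were chosen from 15 accessions and measured in the 16th, and 88 to 96 of them were members. In the accession left out, 86 to 100 of the 100 genes were lower under WL (median 98), against 44.8 to 70.0% of all BnA genes, and their median difference ran from -2.51 (Mu) to -0.74 (Yu). The median of these 16 values was -1.32, set against -1.43 in the accessions used for the choice, and the medians over all BnA genes in the left-out accessions ran from -0.11 to 0.05. Being lower at all 4 time points, the trait of the choice, carried over less. It held in the accession left out for 25 (St) to 93 (Mu) of the 100 genes, with 33 in Yu. The share over all BnA genes was not counted. The rounds share most of their libraries and were not tested together. When 1 replicate number was left out of the choice and measured instead, the median differences were -1.33, -1.39 and -1.32. As a mean over time points all 100 genes were lower under WL in each case, and 99, 99 and 95 were at all 4.

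The members also differed in how steady the difference was. The SD of the WL minus WW difference over accessions had a median of 0.76 over members and ran from 0.33 to 1.39, against a median of 0.19 over all BnA genes tested. The steadiest were BraA09g14450R (SD 0.33, mean -1.26), BraA06g40520R (0.35, -1.28) and BraA03g45560R (0.39, -1.05). BraA06g40520R held a median of 17.3 CPM under WW (3.01 to 105.8) and 6.42 under WL (1.09 to 52.3), and its difference lay between -2.09 in Mu and -0.69 in Yu. BraA09g14450R held 7.15 CPM under WW (1.40 to 56.4) and 2.59 under WL (0 to 22.0), and BraA03g45560R 6.07 (0.431 to 56.5) and 2.66 (0.102 to 14.2).

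The most variable were BraA04g04080R (SD 1.39), BraA06g14590R (1.36) and BraA08g02210R (1.29). BraA06g14590R was lower by 3.86 (log2) in Ca and 3.59 in Mu, but its difference was 0.49 in Ab, 0.35 in Ne and 0.15 in St. Its median was 4.14 CPM under WW (0 to 508.7) and 0.165 under WL (0 to 7790.8), and the highest WL value was again that of replicate 1 of Ab at ZT13. Without that library its mean difference was -1.62 in place of -1.57, and its difference in Ab turned to -0.27. Without all libraries in doubt it was 0.26 in Ab, 0.08 in Ne and 0.004 in St, and -2.49 in Ca, with ZT7 missing in St and ZT13 in Ca. BraA08g02210R held 8.62 CPM under WW (0 to 839.2) and 0.465 under WL (0 to 526.1), with differences from -4.69 in Ca (-3.37 without the libraries in doubt, and so without ZT13) to -0.31 in Yu.

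For 9 members the mean under WW was below 0.5 CPM in at least 1 accession, where 10.2% of all BnA genes tested had such an accession. The clearest case was a pair of neighbouring identifiers on A04, BraA04g04070R and BraA04g04080R, which were at or near 0 in the same 4 accessions, Gr, Mu, Ne and Ze. In the 88 libraries of these accessions BraA04g04070R was at 0 in 79 and reached at most 0.175 CPM, and BraA04g04080R was at 0 in 70 and reached at most 0.283. In the 266 libraries of the other 12 accessions, BraA04g04070R was at 0 in 1 and had medians of 37.1 CPM under WW and 11.9 under WL, and BraA04g04080R was at 0 in 15 and had medians of 6.60 and 0.696. Over those 12 accessions the mean differences were -1.63 and -2.13, larger than the -1.22 and -1.60 over all 16, and all 12 were below 0 for both. BraA05g40480R was low in this way in Br and Se, BraA04g29790R in Al and Ne, BraA02g07690R in Gr and Ne, and BraA04g30220R, BraA03g28680R, BraA07g25640R and BraA07g10860R in 1 accession each. Reads were mapped to a B. rapa reference, so that a missing gene and an allele whose reads do not map cannot be told apart.

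Members lay on all 10 A chromosomes, with 21 on A03 and 13 on A04, but 2 on A01. As a share of the BnA genes tested on a chromosome, this was 1.03% on A04, 0.741% on A03 and 0.137% on A01. In 6 pairs, members stood at most 5 identifiers apart. Besides the A04 pair, BraA03g28670R and BraA03g28680R were next to each other, with medians under WW and WL of 6.80 and 1.011 CPM for the first and 3.94 and 0.299 CPM for the second. The deviations of these 2 from the means of their groups had a correlation of 0.88 over the libraries of groups with 2 or more plants, and those of the A04 pair 0.67. In a pair with 1 identifier between, BraA05g04610R and BraA05g04630R (mean differences -1.21 and -1.77), the gene between them, BraA05g04620R, had a mean difference of 0.45. The counts of a read that mapped to several places were divided among them, and a median of 43.4% of the nonzero counts of a member were not whole, against 46.9% over all BnA genes tested, so that near copies may share reads. Values that were not whole outnumbered whole ones in 22 members, a share below the 35.5% of all BnA genes.

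The study's table of annotations, made through Arabidopsis orthologs, was held here only in shortened form and for 1 of its response modules, which the study had derived from these same libraries, so it was read for single genes and not counted as evidence on the list. It held 11 members. BraA07g20790R was listed under systemic acquired resistance, defense response to bacterium, innate immune response and leaf senescence. It had medians of 31.8 CPM under WW (0.612 to 376.3) and 11.5 under WL (0 to 289.3). BraA04g04660R, also under systemic acquired resistance, the lasting resistance of distant leaves after a local infection, had 10.6 (0.102 to 309.6) and 3.20 (0 to 197.2). BraA02g43070R, BraA03g49990R, BraA05g04610R, BraA06g11070R and BraA07g02810R were listed under defense response to other organism. Of these, BraA03g49990R had medians of 8.97 and 3.05 CPM, BraA05g04610R 5.14 and 1.58, BraA06g11070R 46.8 and 17.8, and BraA07g02810R 12.599 and 3.76, under WW and WL in that order. BraA01g01720R, listed under defense response to bacterium and galacturonan metabolic process (galacturonan is the backbone of pectin), had 27.0 and 11.8 CPM, and BraA04g03200R, under galacturonan metabolic process, 42.2 and 17.1 CPM. BraA07g27820R, the most abundant member per length, was listed under transport and metabolism of disaccharides. These 10 genes were each lower under WL in 15 or 16 accessions, with mean differences from -1.498 (BraA07g02810R) to -1.10 (BraA07g20790R).

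The time of day is a contrast of the same libraries that the choice of the members did not use. Between the 4 time points, averaged over both treatments, 96 of the 100 members differed (edgeR quasi-likelihood F test over all genes, adjusted p of 0.01 or less), where 87.4% of all BnA genes and 87.1% of all genes tested did. A difference of 1 or more (log2) between the highest and the lowest time point was added, and 74 members passed both, where 16.9% of BnA genes and 16.7% of all genes did. A gene needed large differences between libraries to be chosen, and the members had a higher CPM than all BnA genes (medians 20.2 and 10.6). The shares of all genes, here and below, were not matched for level or spread. The size of this daily difference had a median of 1.32 over members (0.45 to 3.47) against 0.46 over BnA genes. The 4 members that missed the threshold were BraA09g53190R (adjusted p = 0.0383), BraA10g03500R (0.0308), BraA02g43070R (0.108) and BraA04g20440R (0.0490), all from edgeR.

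Most members were high late in the day or at night. Under WW, the mean over accessions was highest at ZT13 for 46 members and at ZT19 for 46, and lowest at ZT1 for 37 and at ZT7 for 58. Over all BnA genes tested, 63.5% peaked at ZT13 or ZT19, 42.0% were lowest at ZT1 and 28.0% at ZT7, so that the members' share with a trough at ZT1 was below that of all BnA genes. The division between ZT13 and ZT19 was not firm, since leaving out a replicate number gave 31 to 60 peaks at ZT13 and 31 to 61 at ZT19. Under WL the peak lay at ZT19 for 81 members and at ZT13 for 12, against 43.2% and 27.6% of all BnA genes. Without the libraries in doubt these counts were 79 and 13, and the WW troughs at ZT1 and ZT7 were 30 and 66. The mean level of the members under WW was 3.35 ± 0.74 at ZT1, 3.20 ± 0.77 at ZT7, 4.23 ± 1.10 at ZT13 and 4.23 ± 1.07 at ZT19, and under WL 1.89 ± 0.52, 1.89 ± 0.52, 2.48 ± 0.80 and 2.91 ± 0.84 (log2(CPM + 1), SD over accessions, n = 16).

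**Figure D4:**
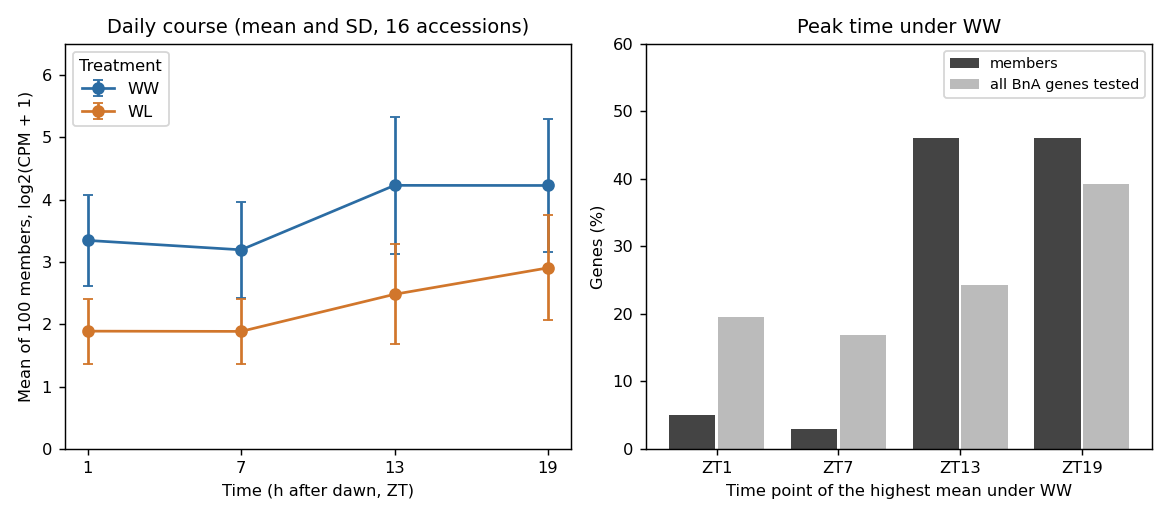
Left, mean log2(CPM + 1) of the 100 members by time point (hours after dawn) under WW (blue) and WL (orange), with the SD over the 16 accessions as bars. Right, percent of members (dark) and of all BnA genes tested (light) whose WW mean was highest at each time point; 46 of the members peaked at ZT13 and 46 at ZT19.

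Within each treatment, the daily difference passed the same threshold for 96 members in WW libraries, where 76.6% of all genes did, and for 70 members in WL libraries, a share below the 75% of all genes. With the size of 1 or more added, the counts were 84 under WW and 59 under WL (17.1% and 18.4% of all genes). Whether the daily course differed between treatments was not tested, because that contrast is made of the differences that chose the members.

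Of the members with the 3 largest daily differences, 1 had its highest mean under WW at ZT19, 1 at ZT13 and 1 at ZT1. BraA08g19890R, at its highest at ZT19, had a daily difference of 3.47 (adjusted p = 1.18e-32, edgeR). Its medians under WW were 5.88 CPM at ZT1, 17.8 at ZT7, 54.0 at ZT13 and 86.8 at ZT19, and under WL 1.27, 7.79, 20.9 and 31.1. BraA09g56090R, whose mean was highest at ZT13, had a difference of 3.28 (adjusted p = 1.39e-45, edgeR), with WW medians of 15.8 CPM at ZT1, 122.1 at ZT7, 122.0 at ZT13 and 151.1 at ZT19 and WL medians of 2.56, 43.2, 53.3 and 43.8. Under both treatments the median at ZT1 thus stood apart from the other 3 time points. BraA06g11070R (2.93, adjusted p = 9.27e-21, edgeR) had WW medians of 12.0, 31.5, 76.2 and 126.7 CPM and WL medians of 2.64, 9.48, 40.4 and 54.5 in the same order. BraA04g03200R (2.73, adjusted p = 4.84e-38, edgeR) had 21.5, 28.7, 48.9 and 94.99 under WW and 4.74, 14.9, 20.0 and 36.8 under WL. In all 4, the highest WL median was above the lowest WW median, both being medians over plants. BraA03g06500R (2.20) and BraA07g33250R (2.19) peaked at ZT13 under WW, with WW medians at ZT1 and ZT13 of 11.1 and 63.98 CPM for the first and 10.6 and 85.6 CPM for the second.

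Only 8 members peaked at ZT1 or ZT7 under WW. BraA09g61980R had the largest daily difference of these, with a daily difference of 3.19 (adjusted p = 1.91e-56, edgeR). Its values at ZT1 ran from 63.5 through a median of 274.9 to 677.7 CPM in 46 WW libraries and from 6.41 through 50.1 to 336.3 in 42 WL libraries. At ZT13 they ran from 1.87 through 27.6 to 131.4 in 44 WW and from 0.094 through 6.18 to 44.9 in 43 WL libraries. Its WL minus WW difference was -2.35 at ZT1 and -1.15 at ZT19, and under WL its peak stayed at ZT1. BraA04g21050R peaked at ZT1 with a daily difference of 1.21 and a trough at ZT7 (9.91 CPM under WW and 2.095 under WL, as medians). BraA06g14590R, also at its highest at ZT1 under WW, had a difference of 1.07 with WW medians of 8.58, 1.35, 4.74 and 4.43 CPM over the 4 time points. BraA05g29540R peaked at ZT7 (WW median 9.63 CPM, against 1.72 at ZT13), with a daily difference of 1.02. BraA07g23820R (0.52, adjusted p = 1.30e-05, edgeR) had its highest WW median at ZT7, 10.9 CPM, against 6.46 to 7.62 at the other time points. With limma on 1 mean per accession and time point it missed the threshold of 0.01 (adjusted p = 0.0165, limma).

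Plants of the same accession, treatment and time point differed widely in the members, and they did so in most members at once. The median SD of the mean level within groups of 2 or more plants was 0.68 (log2), the median range 1.31, and the range was 2 or more in 39 of 125 groups. After the mean of its group was taken from each value, the median correlation between 2 members over the 182 WW and 169 WL libraries of such groups was 0.58, against 0.06 over every 20th of the BnA genes tested. It was 0.62 over the WW libraries alone, 0.56 over the WL libraries alone and 0.56 without the libraries in doubt. These are correlations across libraries that share depth and plant, given as a description. The choice used averages over the same libraries but not the deviations from them. The correlation of a member with the mean of the other members was 0.7 or more for 75 and 0.5 or more for 93 of the 100 members, and for 66 and 92 without the libraries in doubt. Of 19093 other BnA genes, 472 (2.47%) had 0.7 or more with the mean of the members, and of 22122 BnC genes, 584 (2.64%).

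**Figure D5:**
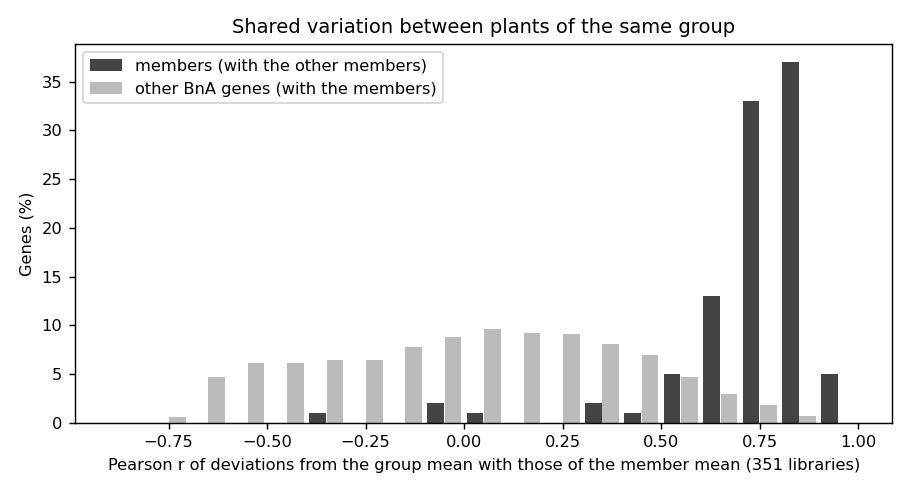
Percent of genes by Pearson correlation, over the libraries of groups with 2 or more plants, of a gene's deviation from its group mean with that of the mean of the members (dark: each member with the other 99; light: the other BnA genes). Of the members, 75 lie at 0.7 or more, and 2.47% of the other BnA genes do.

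Over the same libraries, the deviation of the member mean had a correlation of -0.01 with the log2 total count and of 0.17 with the deviation of the mean of all BnA genes. The share of all counts that fell on the 100 members had a median of 0.221% in WW libraries (0.050 to 2.81%) and 0.076% in WL libraries (0.020 to 4.45%). The mean level was 6 or more in 14 WW and 3 WL libraries and under 2 in 12 WW and 76 WL libraries. Plants of Ca, Ab, Mu, Ze, Al, Br and Da made up the 15 libraries with the highest mean, and 4 of these 15 were among those that matched another time point best. The libraries whose time point did not match had a median absolute deviation from the group of 1.31 (n = 15), against 0.44 for the others (n = 336). Their part in the shared deviation was not tested beyond the value without them given above.

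The 1056 genes of either subgenome outside the list whose deviations had a correlation of 0.7 or more with the members were all lower under WL on average, between -2.41 and -0.06 (median -0.66), where 59.0% of all other genes tested were. Their lower level under WL shares its libraries with that of the members and is given as a description.

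7 members stood outside the shared deviation, with a correlation under 0.5 with the other members. They were BraA07g23820R (r = -0.07), BraA09g53190R (-0.38), BraA05g08900R (0.44), BraA02g07690R (-0.01), BraA09g02470R (0.35), BraA09g61980R (0.32) and BraA05g29540R (0.05), and they were set apart after their values had been seen. Among themselves, BraA07g23820R, BraA09g53190R and BraA02g07690R had correlations of 0.51 to 0.57, and the median over all pairs of the 7 was 0.23. 4 of them were among the 8 members that peaked at ZT1 or ZT7 under WW.

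The order of the accessions was another in these 7 than in the remaining 93, a difference that was not tested. The mean difference of the 7 was largest in Av (-2.49), St (-2.43), DH12 (-2.28) and Yu (-2.19), whereas the 93 were at -0.87 in Av, -0.80 in St and -0.77 in Yu, the smallest but 2, the smallest but 1 and the smallest of the 16. Without the libraries in doubt, St stood at -2.70 for the 7 and -1.17 for the 93, and Qu at -1.91 and -0.65. The values in St then lacked ZT7. The 7 did not all follow 1 order, since BraA05g08900R was lowest in Ca (-3.25) and BraA09g02470R in Ab (-3.35). In Ca and Mu, where the 93 had -2.78 and -2.61, the 7 had -1.504 and -1.86. Without the libraries in doubt, and so without ZT13, the values in Ca were -2.35 for the 93 and -1.68 for the 7. The 7 members for which every WL library lay below every WW library in at least 1 accession, where 0.125% of BnA genes tested and 0.119% of all genes had such an accession, included 5 of the 7 set apart. BraA02g07690R did so in Av, with 12.4 to 27.4 CPM in 11 WW libraries and 0 to 4.16 in 12 WL libraries, and in St, with 1.13 to 8.60 and 0 to 0.248. BraA05g29540R did so in St (4.42 to 68.8 against 0 to 2.12 CPM) and BraA05g08900R in Gr (1.73 to 48.9 against 0 to 0.843 CPM). The other 2 were BraA03g40200R in St (6.24 to 316.6 against 1.42 to 5.54 CPM) and BraA03g22760R in Ne (4.28 to 10.1 against 0.221 to 2.44 CPM). No member had an accession in which every WL library was above every WW library.

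The 100 BnC genes chosen by the same rule gave values close to those of the members, from the same libraries. Their daily difference passed the threshold for 97, and with a size of 1 or more for 78, and their median difference was -1.73 at ZT13 and -1.24 at ZT7. Their deviations had a median pairwise correlation of 0.61, and 76 of the 100 had a correlation of 0.7 or more with the mean of the BnA members. The 100 BnA genes raised under WL at all 4 time points, chosen in the opposite direction, had a daily difference past the threshold for 93, with a size of 1 or more for 50, a WW peak at ZT1 for 56 and a median pairwise correlation of 0.17. These lists share all libraries with the members, and no difference between lists was tested.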

How the data were processed

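Leaf RNA (stranded mRNA, paired-end) was sequenced by the authors, trimmed with Trimmomatic 0.33, mapped with HISAT2 2.1.0 to the joined genomes of B. rapa R500 and B. oleracea TO1000 and counted with featureCounts, with strand and with reads of several alignments divided among them. The deposited estimated counts are these fractional counts, without normalization, in 1 table per accession; 36% of values above 0 were not whole. The deposited log2 FPKM were normalized by the authors with edgeR within each accession, without genes that did not vary, so their levels are set across tables only as a description. Fractional counts and FPKM both depend on how reads shared by near copies were divided.

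CPM were computed from the deposited counts and the total of each library, and differences on the log2(CPM + 1) scale, which understates the change of low genes. For the time-of-day test, counts were rounded and fitted with edgeR 4.0.16 (TMM, glmQLFit and glmQLFTest, 3 degrees of freedom, 32 means of accession by treatment plus time point, Benjamini-Hochberg adjustment over all 41325 genes, called at 0.01 or less). The dispersion trend came from every 20th gene by abundance. Data were also simulated with a common dispersion for all genes, no correlation between genes and no daily change that differed between accessions. On these simulated data with 4133 genes, 95 of 100 genes changed by 0.5 and 100 of 100 changed by 1 (log2) at ZT13 were recovered for this test, with 0 false calls. Whether these values carry over to the members, which deviate together between plants of a group, or to the libraries in doubt was not tested. Plants are the replicates. The p-values measure the spread between them together with daily changes that differ between accessions or treatments, since the time point was fitted as additive.

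The members and lists were chosen with earlier results of these data known. Named genes were the 10 members with the lowest highest difference, the 5 most abundant per length, the 3 with the largest daily difference for each peak time, the 3 most and the 3 least variable over accessions, neighbours by identifier, and up to 10 in the annotation table in rank order; other members are named where a count of 5 or fewer, or a feature singled out after its values were seen, required it. Alternatives were RLE factors, another count filter, a threshold of 0.05, DESeq2 1.42.0, limma 3.58.1, single treatments, a replicate block, each replicate number left out, pseudocounts 0.1 and 5, TMM-scaled CPM, medians over replicates and other minimums of CPM. 1 of the 355 listed libraries, from Br (WW, ZT13, replicate 1), was not used here, and no column of another series was found. Protein and promoter sequences were not used here.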

Additional observations from a re-analysis of the deposited data

How the results depend on the processing

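Counts were compared with a limit of 1.5 times, which is wide, since a count of 96 of 100 cannot pass it upward. The lower count in WL libraries alone, given above, also met it. The counts of members with a daily difference stayed within this limit of those reported under every alternative run. They were 96 of 100 with RLE factors, with DESeq2 and with limma on 1 mean per accession and time point, 95 with a mean count of 1 or more per library, 99 at an adjusted p of 0.05, and 86 to 88 when a replicate number was left out (68 to 74 with a size of 1 or more). With limma, BraA07g23820R dropped out and BraA04g20440R came in. In the main fit 87.1% of all genes passed without a size and 16.7% with it. The counts without a size are therefore read only for their stability, not as a trait of the members. With the replicate number as a block the counts were 95 and 74. The numbers did not pair the plants: the median correlation of deviations was -0.02 between libraries of the same number and 0.01 between others, so this fit says nothing of weaker effects. Without the 19 libraries in doubt, a choice made after the data were seen, the counts were 95 and 83, and the WW peaks at ZT1, ZT7, ZT13 and ZT19 numbered 6, 3, 48 and 43. Of these 19 libraries, 17 were picked because their profile over the day matched another time point better. Leaving them out favours larger daily differences by construction, so the 83 is not an independent check.

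The median WL minus WW difference of the members was -1.85 and -0.93 with pseudocounts of 0.1 and 5, -1.39 with TMM-scaled CPM, -1.97 with log2 FPKM, -1.47 with medians over replicates and -1.47 to -1.35 when a replicate number was left out. The list itself depended more on these choices. The rule rerun with a pseudocount of 0.1 kept 60 of the 100 members, without replicate 2 it kept 66 (range over the 3 numbers 66 to 84), and with a mean CPM of 10 or more, a pseudocount of 5, medians over replicates, without the libraries in doubt, TMM-scaled CPM or a mean CPM of 0.5 or more it kept 78, 75, 87, 89, 98 and 100. A higher pseudocount shrinks the differences of low genes by construction. Of 342 differences of single named genes under alternatives, 321 moved by less than their SD over accessions and none changed sign. The choice kept only genes well below 0 and the alternatives reuse the same libraries, so a change of sign was hardly possible. The SD over accessions is also a wide limit (0.33 to 1.39 over members). These counts are therefore no independent check of the differences. Values of members at a few CPM are limited by depth.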
